A study of Mus musculus with 2 samples.

Results

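The 4 miRNA genes described here lie inside muscle genes: Mir208a in Myh6, Mir208b in Myh7, Mir499 in Myh7b and Mir486 in Ank1. They were chosen by name, as the miRNAs of the 3 myosin heavy chain loci and of the ankyrin 1 locus, and they are 4 of the 2202 miRNA genes in the deposited tables. The tables come from small RNA sequencing (microRNA-seq) of the gastrocnemius, a calf muscle, from male B6CASTF1/J mice, an F1 cross, aged 10 days. There was 1 group of 2 libraries, with no treatment and no other genotype, so the values describe these miRNAs in young muscle and the spread between libraries of the same kind. The labels call the libraries biological replicates 1 and 2 and give each a differently numbered male, but they list the same donor entry for both. The RNA came from whole muscle, in which fewer cells of a type and less RNA per cell cannot be told apart.

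Many miRNAs are cut from an intron of a longer transcript, so that the miRNA and the host mRNA can share a promoter. Myh6 encodes the alpha cardiac myosin heavy chain, Myh7 the slow myosin of heart and slow muscle fibres, and Myh7b a related slow-type myosin. In mice, miR-208b and miR-499 are known to favour the slow fibre programme, with the transcriptional repressor Sox6 among their targets, and miR-208a is known from the heart. Ank1 encodes an ankyrin that anchors membrane proteins to the skeleton of red blood cells, and a short muscle form of it sits at the sarcoplasmic reticulum. Mir486 is known as a miRNA of both muscle and red cells.

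The mature sequences show how the myosin miRNAs are related. RefSeq sequences (build GRCm38.p6) were matched by symbol for 3 of the 4 genes, all but Mir486. The arms that share bases 2 to 7 are printed 5′ to 3′ in lower case, with the seed (bases 2 to 8) in capitals.
mmu-miR-208a-3p: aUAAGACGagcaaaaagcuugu
mmu-miR-208b-3p: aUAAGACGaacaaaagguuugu
mmu-miR-499-5p: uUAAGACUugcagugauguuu
Among the 1738 mature mouse sequences of the RefSeq table, the seed of miR-208a-3p was found in 2, namely miR-208a-3p and miR-208b-3p. These arms were identical at 19 of 22 positions, the first 9 included, and differed by G10A, A16G and C18U, with the base of miR-208a-3p given first and positions counted from the 5′ end. The seed of miR-499-5p was found in no other mature sequence of the table. It differed from the miR-208b-3p seed only at its last base, by G8U (the base of miR-208b-3p first), so that bases 2 to 7 were the same in all 3 arms. Outside this stretch miR-499-5p diverged from the others, and miR-208b-3p and miR-499-5p were identical at 10 of 21 positions.

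The hairpins are shown because reads were counted for the whole hairpin and not for each arm. Both mature arms are in capitals.
Mir208a hairpin: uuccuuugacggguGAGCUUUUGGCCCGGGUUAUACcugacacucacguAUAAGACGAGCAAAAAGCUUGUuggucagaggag
Mir208b hairpin: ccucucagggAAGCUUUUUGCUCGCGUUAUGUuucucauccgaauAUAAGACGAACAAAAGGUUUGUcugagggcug
Mir499 hairpin: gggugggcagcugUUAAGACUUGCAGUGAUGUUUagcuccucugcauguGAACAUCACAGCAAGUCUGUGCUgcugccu
The seed bases common to the family lie in the 3p arm of the Mir208 hairpins and in the 5p arm of Mir499. None of these hairpins had a stretch of 14 nt or more in common with another annotated miRNA gene. Among annotated miRNA genes, their mature reads can thus be told apart, also where the seeds are the same.

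All 4 genes lay in introns of their hosts, on the host's strand, in the GENCODE M21 annotation of mm10. Mir208a (ENSMUSG00000065432.1) was at chr14:54949060-54949142 on the minus strand, in intron 29 of Myh6. Mir208b (ENSMUSG00000077928.1) was at chr14:54975700-54975776 on the same strand, in intron 31 of Myh7, with 26557 bp between the hairpins. Mir499 (ENSMUSG00000076312.1) was at chr2:155622880-155622958 on the plus strand, in intron 19 of Myh7b. Mir486 (ENSMUSG00000070084.3) was at chr8:23142555-23142682 on the plus strand. Of the 15 annotated Ank1 transcripts that span Mir486, 11 had it in intron 41, 42, 43 or 44 and 4 had it in intron 2, 3 or 4. The gene Mir3107 (chr8:23142573-23142662) lies within Mir486 on the opposite strand.

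The libraries held 3999172 and 5062714 counts assigned to miRNA genes in replicates 1 and 2. A further 47.0% and 48.0% of all reads matched several genomic places and were counted for no gene. Levels are given as counts per 1000000 miRNA counts (CPM), as mean ± SD over the 2 libraries, with exact Clopper-Pearson 95% intervals for single libraries. These intervals, and the limit of 3 counts that a count of 0 allows, cover counting error only. As a check of the tissue, the skeletal muscle miRNA Mir206 stood at 94022 ± 9301 CPM. Other skeletal muscle miRNA genes were far lower, with Mir1a-2 at 102 ± 14 CPM, Mir133b at 38.8 ± 6.6 and Mir1a-1 at 2.61 ± 0.50. Their hairpins have stretches in common with other miRNA genes, so these levels can be too low.

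In counted reads, Mir499 and Mir486 had the highest levels of the 4 genes, Mir208b was lower, and Mir208a lay at the limit of detection. The counts of Mir486 leave out reads within a stretch of 22 nt that it has in common with Mir3107. Its level and the summed share can thus be too low, and its place in the order is uncertain. Together the 4 genes held 0.0503% ± 0.0101 (SD, n = 2) of the miRNA counts, from 1726 counts in replicate 1 and 2908 in replicate 2. A miRNA read covers a mature arm and not the gene's length, so CPM does not grow with gene length as it does for mRNA. Levels between genes were nevertheless also set per 100 nt of annotated gene. On that scale Mir499 had 313 ± 98 CPM, Mir486 had 166 ± 8.0, Mir208b had 56.5 ± 17.0 and Mir208a had 0.238 ± 0.337. This order was the same in each library. Without the length, Mir499 (247 ± 77 CPM) and Mir486 (212 ± 10 CPM) differed by less than the SD of Mir499, and Mir486 had the higher count in replicate 1.

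**Figure D1:**
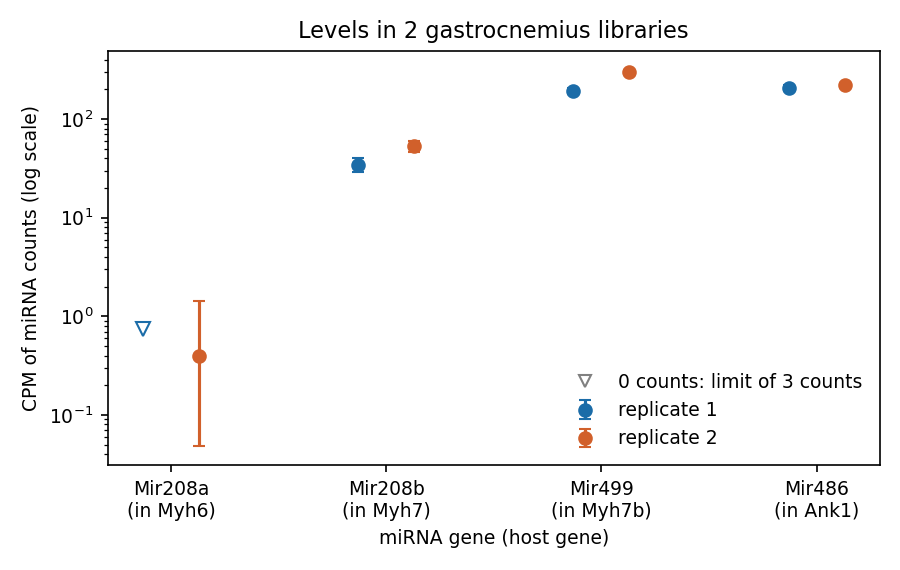
Level of each miRNA gene (x axis, with its host gene) in CPM on a log scale in replicates 1 and 2 of the gastrocnemius. Points are single libraries with exact 95% intervals, some smaller than the point, and the open triangle is the limit of 3 counts (0.75 CPM) for Mir208a with 0 counts in replicate 1. Mir208a sits far below the other 3 genes, and the gap between libraries is wider for Mir499 and Mir208b than for Mir486. Counts of Mir486 leave out reads within the stretch it has in common with Mir3107.

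Mir208a, the miRNA of the alpha cardiac myosin gene, was not detected above the limit in either library. It had 0 counts in replicate 1, which allows up to 0.75 CPM, and 2 counts in replicate 2, a level of 0.395 CPM (interval 0.0478 to 1.43). Its neighbour Mir208b had 137 and 267 counts in the same libraries. Mir208b was thus at least 45.7-fold higher than Mir208a in replicate 1, set against 3 counts in that library. This bound takes the count of Mir208b as exact. In replicate 2 the ratio of their counts was 133.5, with an interval of 36.6 to 1108. The bound in replicate 1 and this interval are not the same measure. By exact interval, Mir208a held at most 2.66% of the counts of both genes in either library. The arms differ at 3 positions and the hairpins share no long stretch, so each can be counted apart from the other.

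Mir208b, the miRNA of the slow myosin gene, was present at a low level. It had 34.3 CPM (interval 28.8 to 40.5) in replicate 1 and 52.7 CPM (interval 46.6 to 59.5) in replicate 2, a mean of 43.5 ± 13.1 CPM. The intervals of the libraries did not overlap. By mean CPM it ranked 202 of the 2202 genes, between Mir598 (44.1 ± 8.6 CPM) and Mir190a (43.3 ± 5.9 CPM), and these neighbours lay within its SD. Of 969 miRNA genes inside a protein-coding gene on the same strand, 134 had at least 10 counts in both libraries, with a median of 78.6 CPM, and Mir208b ranked 79 among the 969.

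Mir499, the miRNA of Myh7b, was the most abundant of the myosin-hosted genes. It had 769 counts or 192 CPM (interval 178.9 to 206.4) in replicate 1 and 1528 counts or 302 CPM (interval 287 to 317) in replicate 2. These intervals were also separate. Its rank by mean CPM was 131, between Mir667 (261 ± 14 CPM) and Mir136 (238 ± 8.4 CPM), and 49 among the 969 hosted genes. Mir499 supplied 84.9% (interval 82.4 to 87.2) of the 906 myosin-hosted counts in replicate 1 and 85.0% (interval 83.3 to 86.6) of the 1797 in replicate 2.

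In counted reads, Mir486 varied least between the libraries among the 3 detected genes. It had 820 counts or 205 CPM (interval 191 to 220) in replicate 1 and 1111 counts or 219 CPM (interval 207 to 233) in replicate 2. These intervals overlapped. Its rank by mean CPM was 140, between Mir188 (221 ± 48 CPM) and Mir410 (211 ± 15 CPM), and 52 among the 969 hosted genes.

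The counts of Mir486 depend on how the reads were assigned, because of Mir3107 on the other strand. Counted on their own strands, Mir486 held 98.1% (interval 96.9 to 98.9) of the 836 reads of the 2 genes in replicate 1 and 98.7% (interval 97.8 to 99.3) of the 1126 in replicate 2. Mir3107 had 16 and 15 reads. In the column that ignores strand, Mir486 and Mir3107 both had 0 reads in each library, since reads over overlapping genes are then called ambiguous. The same held for 24 of the 28 such overlapping genes that had at least 10 counts in both libraries. The annotated Mir486 and Mir3107 sequences also have a stretch of 22 nt in common. A read that lies wholly within this stretch matches both genes, and multi-mapping reads were assigned nowhere. The counts, strand shares, ranks and library ratios of Mir486 thus leave out such reads, whose number is not known here. The level of Mir486 can be too low, and its place beside Mir499 and Mir208b is uncertain.

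**Figure D2:**
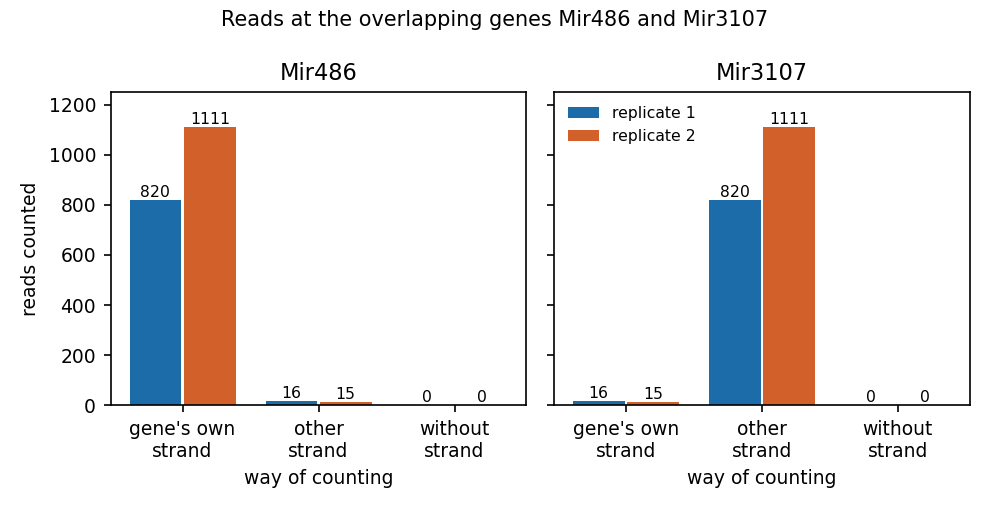
Reads counted for Mir486 (left) and Mir3107 (right) on the gene's own strand, on the other strand and without regard to strand (x axis), with bars from 0 for each replicate. The 820 and 1111 reads of Mir486 are the other-strand reads of Mir3107, and neither gene has a read in the column without strand.

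Mir499 and Mir208b were higher in replicate 2 by nearly the same factor, and Mir486 differed less. The difference was tested for each of the 332 genes whose counts averaged 10 or more, using an exact binomial test on counts given library totals scaled by the trimmed mean of M-values (TMM), with Benjamini-Hochberg adjustment over the 332. This test compares these libraries, not conditions, and it knows counting error only. Mir499 was 1.65-fold higher in replicate 2 (log2 ratio 0.72, interval 0.60 to 0.85, exact binomial adjusted p = 9.42e-30). Mir208b was 1.62-fold higher (log2 ratio 0.69, interval 0.39 to 1.00, exact binomial adjusted p = 1.71e-05). Mir486 was 1.12-fold higher (log2 ratio 0.17, interval 0.04 to 0.30, exact binomial adjusted p = 0.0313). Mir208a, with a mean of 1 count, was not tested.

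These calls have to be read against a background in which many genes differed. By the same test, 27.1% of the 332 genes were higher and 12.3% lower in replicate 2, and the median log2 ratio was 0.02. With plain library totals the split was 18.7% higher and 23.8% lower, and Mir486 then did not pass (log2 ratio 0.10, exact binomial adjusted p = 0.241). An exact binomial call together with a fold of at least 1.5 upward was reached by 6.33% of the genes, Mir499 and Mir208b among them. By log2 ratio over all 332 genes, called or not, Mir499 ranked 26, Mir208b 28 and Mir486 86. When edgeR's exact negative binomial test allowed for the spread between the libraries, 1.81% of the genes were higher and none of the 3 was among them. Their adjusted p by that test was 0.34 for Mir499, 0.57 for Mir208b and 1 for Mir486, with unadjusted p of 0.0146, 0.0344 and 0.569. The dispersion in that test came from these 2 libraries themselves, so the differences tested also counted as spread.

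**Figure D3:**
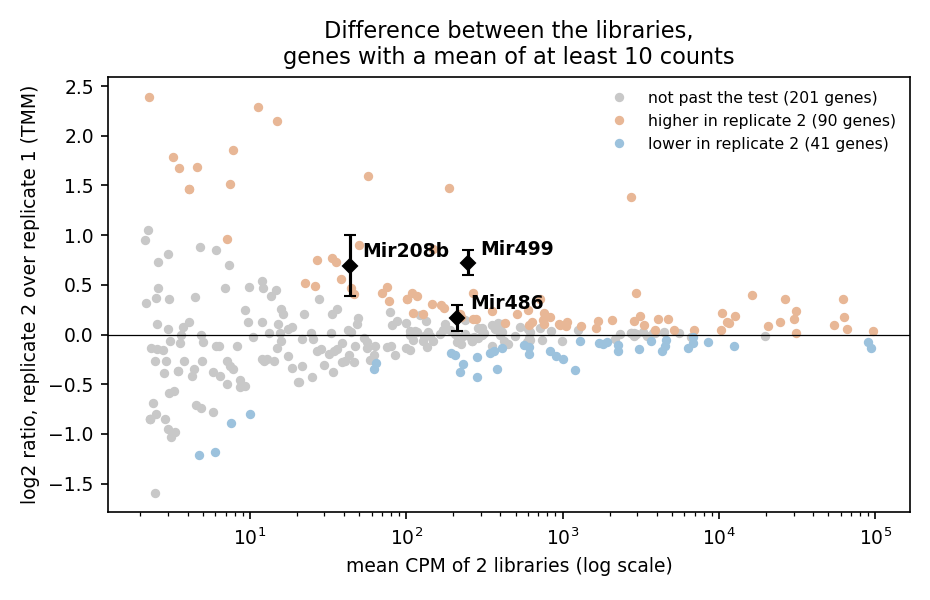
Log2 ratio of replicate 2 over replicate 1 with TMM scaling (y axis) against mean CPM on a log scale (x axis) for the 332 tested genes, coloured by the exact binomial call. Black diamonds with 95% intervals mark Mir208b (0.69), Mir499 (0.72) and Mir486 (0.17), of which the first pair lies above most genes of like level.

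Ratios between the genes within a library do not depend on library scaling. The count of Mir499 was 5.61 times that of Mir208b (interval 4.67 to 6.78) in replicate 1 and 5.72 times (interval 5.02 to 6.54) in replicate 2, so this ratio was 1.02 times as high in replicate 2, against 1.65 and 1.62 times for the genes themselves. Mir499 over Mir486 was 0.938 (interval 0.849 to 1.04) in replicate 1 and 1.38 (interval 1.27 to 1.49) in replicate 2, and these intervals were separate. Mir486 over Mir208b was 5.99 (interval 4.99 to 7.23) and 4.16 (interval 3.64 to 4.77), again with separate intervals. The myosin-hosted pair thus kept its proportion across the libraries within counting error. The proportion of counted Mir486 reads to either differed by more than that.

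**Figure D4:**
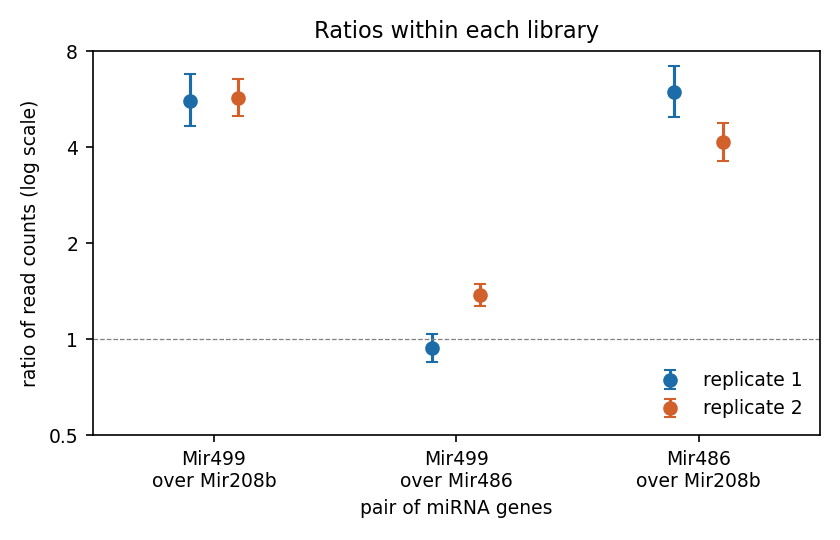
Ratio of read counts of each pair of miRNA genes (x axis) within each library on a log scale, with exact 95% intervals. The points for Mir499 over Mir208b coincide at 5.61 and 5.72, whereas those for the pairs with Mir486 are apart.

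The genes most like each of the 3 in their change between the libraries were sought among the 173 genes whose level averaged 100 CPM or more. Likeness is the absolute difference of the log2 ratios, which rests on 2 libraries. For Mir208b, itself below that level, the nearest of these genes was Mir499, at a difference of 0.028. Mir144 (log2 ratio 0.86) and Mir708 (0.42) followed. Tested genes below 100 CPM lay nearer. Mir3064 (log2 ratio 0.70, interval -0.06 to 1.49) ranked 27 of the 332, between Mir499 at 26 and Mir208b at 28. Snord43 (0.73) and Mir672 (0.75) were nearer to Mir499 than Mir144 was. The likeness of Mir208b and Mir499 is thus not particular to them. For Mir499, the nearest of these genes were Mir144, Mir708 and Mir323 (0.42), at differences of 0.14, 0.30 and 0.31. Mir499 had the fourth largest upward ratio of the 173. For Mir486 the nearest were Mir20a, Mir412 and Mir411, with log2 ratios of 0.17, 0.17 and 0.18.

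The other muscle miRNA genes were led by Mir206, which was lower in replicate 2. Of the 7 genes Mir1a-1, Mir1a-2, Mir1b, Mir133a-1, Mir133a-2, Mir133b and Mir206, 5 were tested, and 1 was higher and 1 lower in replicate 2, with a median log2 ratio of -0.13 against 0.02 over all tested genes. Over all tested genes 27.1% were higher and 12.3% lower, so 1 of 5 in each direction is no result about these genes. Their summed level was 100745 CPM in replicate 1 and 87602 CPM in replicate 2. Mir206 was lower (log2 ratio -0.13) and Mir1a-2 was higher (log2 ratio 0.36) by the exact binomial test with adjustment over the 332 genes. Mir133b had a log2 ratio of -0.28 (interval -0.59 to 0.03) and did not pass. The count of Mir206 was 523 times that of Mir499 in replicate 1 and 290 times in replicate 2. For 5 of these 7 genes, Mir1a-2 and Mir133b among them, 20 nt or more of the hairpin also occur in a different miRNA gene, so their levels can be too low.

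Markers of other cell types also differed between the libraries. Both erythroid genes, Mir451a and Mir144, were higher in replicate 2 by the exact binomial test, as were 27.1% of all tested genes, and their summed level was 1680 CPM in replicate 1 and 4088 CPM in replicate 2. Neither was at 0. Mir451a was 2.61-fold and Mir144 1.81-fold higher in replicate 2. Mir486, which red cells are also known to contain, was 1.12-fold higher in its counted reads. Those leave out reads within the stretch it shares with Mir3107. By edgeR's exact negative binomial test Mir451a passed (adjusted p = 0.000151) and Mir144 did not (adjusted p = 0.18). The hepatocyte miRNA Mir122 was at 103 CPM in replicate 1, against 272 CPM in replicate 2. It was 2.78-fold higher and passed both tests (exact binomial adjusted p = 1.43e-84, edgeR's exact negative binomial adjusted p = 9.16e-05). The endothelial sum, from Mir126a and Mir126b, was 1.22 times as high in replicate 2. The smooth muscle sum, from Mir143, Mir145a and Mir145b, was 1.21 times as high, through Mir143, whereas Mir145a had 641 CPM in replicate 1 and 589 in replicate 2 (log2 ratio -0.05, not past the exact binomial test, though called lower with plain totals) and Mir145b had 0 and 1 counts. The summed level of the 6 leukocyte genes was 1275 and 1281 CPM, and Mir142b among them was at 0. Mir342 made up most of this sum, with 852 CPM in replicate 1 and 834 in replicate 2. By the exact binomial test 2 of the 5 tested leukocyte genes, Mir142 and Mir155, were higher in replicate 2 and 0 lower. Over all tested genes 27.1% were higher and 12.3% lower. Mir155 did not pass with plain totals. The part of these cell types in the levels of Mir486, Mir499 and Mir208b was not tested.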

How the data were processed

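Per the metadata text deposited with each table, the authors aligned to mm10 and used the GENCODE M21 annotation. Which aligner and counter they used is not given in the sources used here. The deposited values are raw read counts per miRNA gene in 3 columns, without strand and for each strand, above which 4 rows sum unassigned reads. These rows held 58.7% and 60.7% of the reads in replicates 1 and 2 and were left out of totals and tests. Counts on the gene's strand were used. Symbols, positions and hosts came from M21, in which all 2202 identifiers were found. Sequences came from RefSeq.

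Differences between libraries were tested by a two-sided exact binomial test at an adjusted p of 0.05, after edgeR TMM scaling. Alternatives were plain totals, DESeq2 size factors, other count minimums, the column without strand, all reads as denominator, length scaling, each library alone and edgeR's exact negative binomial test. On simulated Poisson counts of this comparison (332 genes), the test recovered, in the true direction, 12 of 23 shifts of 1.5-fold, 26 of 32 of 2-fold and 28 of 31 of 4-fold, and it called 4 of 246 unchanged genes. These rates hold for counting error only.

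The members and lists were chosen with earlier results of these data known. Named genes are the members, genes that overlap them or share 20 nt, the listed muscle and cell type genes, rank neighbours and the 3 nearest log2 ratios. Software was Python 3.11.15 with scipy 1.17.1, pandas 2.3.3, numpy 2.4.6 and matplotlib 3.10.9, and edgeR 4.0.16 and DESeq2 1.42.0 in R 4.3.3.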

Additional observations from a re-analysis of the deposited data

Results flagged for a closer look

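On the strand opposite to Mir486, 16 reads were counted in replicate 1 and 15 in replicate 2, above the limit of 3 reads used where a count is 0. These are the reads counted for Mir3107 on its own strand. The other 3 genes had no read on the opposite strand in either library.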

How the results depend on the processing

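With all reads as the denominator, the levels were 17.4 for Mir208b, 99.0 for Mir499 and 85.5 for Mir486 per 1000000 reads. Without strand, Mir486 was at 0 CPM, so its ratios could not be given. Per 100 nt of gene, Mir486 was at 166 CPM. With edgeR's exact negative binomial test, log2 ratios of 0.69 for Mir208b, 0.72 for Mir499 and 0.17 for Mir486 no longer passed. Over all tested genes 6 were higher and 0 lower by that test, against 20 and 3 at an unadjusted p under 0.05. Its dispersion came from the same 2 libraries, so the differences tested also counted as spread. The log2 ratio of Mir486 did not pass with plain totals (0.10) or with all genes of at least 1 count tested (0.17, exact binomial adjusted p = 0.0646), where more genes entered the adjustment. Plain totals gave 62 genes higher and 79 lower, against 90 and 41 with TMM. Of the 56 alternative values, 43 kept their call or stayed within the spread. These include the levels and ratios from 1 library alone. With 2 libraries, a single one always lies within the SD of their mean, so those values are no check. The ratio of Mir499 to Mir208b without strand is also among them and rests on the same counts as the main value. From 1 library alone, levels ranged from 0 to 0.395 CPM for Mir208a, 34.3 to 52.7 for Mir208b, 192 to 302 for Mir499 and 205 to 219 for Mir486. No paired analysis was possible because there is 1 group. The low counts of Mir208a limit what can be said of its level.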
